A study of Erythranthe pardalis x Erythranthe guttata and Erythranthe pardalis with 20 samples.

Results

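Migut.A00408, Migut.B00479, Migut.B00708, Migut.D01476 and Migut.K00930 are 5 of the 28140 genes counted in a seed time course of Mimulus (monkeyflower). They were chosen by their mean levels, as type I MADS-box genes with the highest mean at 2 days after pollination (DAP), so the 2 DAP peak is how they were picked and not a result, and every value that involves 2 DAP is given here without a test. All 5 passed the filter on low counts. The study's tables name AGL62 of Arabidopsis thaliana as the nearest homologue of the first 4 genes. For Migut.K00930 they name AGL61, while the study's text names AGL102. The homology could not be checked here, since no sequences were at hand.

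Unpollinated ovules of SEC39 (Mimulus pardalis, inbred) stood for 0 DAP (n = 5). Hybrid seeds came from SEC39 as mother and CSS4 (Mimulus guttatus) as pollen donor, and were collected at 2 DAP (n = 4), 4 DAP (n = 3), 6 DAP (n = 4) and 8 DAP (n = 4). Both the pollination and the father's alleles are therefore absent at 0 DAP and present at every later age, and they cannot be told apart as sources of a difference from ovules. Seeds and ovules were taken whole, so each seed library mixes seed coat, embryo and endosperm. Each ovule library mixes integuments with the rest of the ovule, including the female gametophyte, and holds no embryo or endosperm. The study states that a little placenta may have come along. In such bulk RNA, fewer cells of a type and less RNA per cell cannot be told apart.

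MADS-box genes encode transcription factors that share a DNA-binding domain. The type I branch in plants is known mainly from the female gametophyte and the endosperm, the tissue that feeds the embryo. In Arabidopsis thaliana, AGL62 is expressed in early endosperm and holds back its cellularization, and seeds without it cellularize early and die. AGL61 acts in the central cell, from which the endosperm arises at fertilization. Arabidopsis endosperm begins as free nuclei, whereas the endosperm of Mimulus forms cell walls from its first divisions.

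Libraries held 7588155 to 16529554 counts (median 13118699). A level is given as normalized CPM, which is counts scaled to the size of the library (CPM) after TMM scaling (a correction for differences in RNA composition, with factors of 0.716 to 1.5). A single library with 3 counts stood at 0.155 to 0.332 normalized CPM, and 3 counts is taken as the most that a 0 could hide, for counting error only. The split into ovules and seeds was checked with the homologue of ZHOUPI (Migut.N01183), an endosperm regulator in Arabidopsis thaliana, which had at least 5 counts in each of the 15 seed libraries and 0 in each of the 5 ovule libraries. Its seed levels overlapped between 2 and 4 DAP and between 6 and 8 DAP, so it does not check those ages. Gene lengths were not at hand, so levels are compared between ages of 1 gene and not between genes.

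Migut.D01476 had the most counts of the 5 at 2 DAP. In the 5 ovule libraries it was at 0, 0.0526, 1.4, 0 and 0.111 normalized CPM. It was at 5.8, 10.3, 6.76 and 16.6 at 2 DAP, and at 3.71, 4.5 and 4.42 at 4 DAP. Later seeds had 0.985, 0.214, 0.0881 and 0 at 6 DAP and 0.365, 0.266, 0.637 and 1.22 at 8 DAP. The 4 DAP libraries lay below all those of 2 DAP and above all others, and the 6 and 8 DAP libraries overlapped one another and the ovules. On unscaled CPM the 4 DAP libraries (4.36, 5.12 and 5.3) overlapped those of 2 DAP, of which replicate 3 was at 4.84. From 0 to 8 DAP the means were 0.313 ± 0.61, 9.88 ± 4.89, 4.21 ± 0.433, 0.322 ± 0.451 and 0.621 ± 0.427 (SD). It kept 42.6% of its 2 DAP mean at 4 DAP, the largest share among the 5 genes, and 3.26% at 6 DAP.

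Migut.B00708 followed the same course at a smaller number of counts. Ovules had 0, 0.421, 1.22, 0.237 and 0 normalized CPM. Its levels at 2 DAP were 4.92, 9.29, 5.98 and 10.1, and at 4 DAP they were 2.37, 1.79 and 2.12. At 6 DAP they were 0.328, 0.0713, 0 and 0.174, and at 8 DAP 0.73, 0.0886, 0.955 and 0.203. Again the 4 DAP libraries lay between those of 2 DAP and all others without overlap. The means were 0.375 ± 0.503, 7.57 ± 2.51, 2.09 ± 0.294, 0.143 ± 0.142 and 0.494 ± 0.415 at 0, 2, 4, 6 and 8 DAP (SD). The share of the 2 DAP mean was 27.6% at 4 DAP and 1.89% at 6 DAP.

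Migut.B00479 was the scarcest of the 5 by counts. Ovule replicate 3 held 2 counts and the other 4 ovule libraries none. It had 22, 48, 4 and 18 counts in the 2 DAP libraries and 6, 7 and 9 at 4 DAP. It had 2, 0, 1 and 0 counts at 6 DAP and no count in any 8 DAP library, so that its counts lay almost wholly at 2 and 4 DAP. On the normalized scale its 2 DAP libraries were at 1.14, 4.6, 0.347 and 1.62, so that the lowest of them lay within the 4 DAP range of 0.309 to 0.545. The means were 0.0243 ± 0.0544, 1.93 ± 1.86, 0.439 ± 0.12, 0.0631 ± 0.0792 and 0 normalized CPM from 0 to 8 DAP (SD). Against the limit of 3 counts in each 8 DAP library, a mean of 0.29 normalized CPM, the mean was at least 6.63-fold higher at 2 DAP and at least 1.51-fold higher at 4 DAP. This gene exceeded 1 CPM in 3 libraries, the smallest number that the filter admits, and all 3 were of 2 DAP. It thus entered the tests below only through the age that chose it, and its values in them are given as a description.

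Migut.A00408 stayed present in older seeds. Ovules had at most 2 counts per library and 5 in all, with a highest level of 0.221 normalized CPM. It was at 2.33, 3.93, 5.2 and 1.8 at 2 DAP and at 0.567, 0.794 and 0.848 at 4 DAP. At 6 DAP it was at 2.22, 2, 0.793 and 1.74 and at 8 DAP at 0.912, 1.15, 1.49 and 2.03. Every seed library lay above every ovule library, and the 2 DAP libraries overlapped those of 6 and 8 DAP but not those of 4 DAP. The means were 0.0928 ± 0.106, 3.32 ± 1.55, 0.736 ± 0.149, 1.69 ± 0.627 and 1.39 ± 0.483 from 0 to 8 DAP (SD). As a share of the 2 DAP mean this was 22.2% at 4 DAP, 50.9% at 6 DAP and 42.1% at 8 DAP.

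Migut.K00930 likewise remained in seeds, with the widest spread at the last age. Ovules had 1 to 3 counts, at 0.0526 to 0.332 normalized CPM. Its levels were 2.8, 8.14, 6.93 and 3.52 at 2 DAP, and 1.19, 1.59 and 1.09 at 4 DAP. They were 2.3, 2, 1.5 and 2.7 at 6 DAP and 0.912, 1.68, 3.93 and 8.21 at 8 DAP. The highest 8 DAP library was narrowly above all 4 libraries of 2 DAP (8.21 against 8.14 for the highest of them). On unscaled CPM that order was reversed, at 6 against 7. The lowest 8 DAP library was below all of 4 DAP. The means were 0.136 ± 0.112, 5.35 ± 2.59, 1.29 ± 0.265, 2.12 ± 0.508 and 3.68 ± 3.28 from 0 to 8 DAP (SD), and the 8 DAP mean was 68.9% of that at 2 DAP. The 2 libraries of 8 DAP with the most Migut.K00930, replicates 3 and 4, also had the most of the seed maturation regulator FUS3 (Migut.F00019, at 5.11, 1.51, 14.5 and 20.8 normalized CPM in replicates 1 to 4). They also had the most of ABI3 (Migut.D00511), a partner of FUS3 in seed maturation, at 27.9, 18.8, 33.4 and 43.5. The other seed and embryo markers of the list did not share that order. L1L (Migut.M01289) was at 6.66, 10.4, 9.98 and 6.69 and ZHOUPI at 10.9, 12.6, 9.98 and 13.1 in replicates 1 to 4. The 4 markers summed to 43.2 to 84 at 8 DAP, and their part in the spread of Migut.K00930 was not tested.

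**Figure D1:**
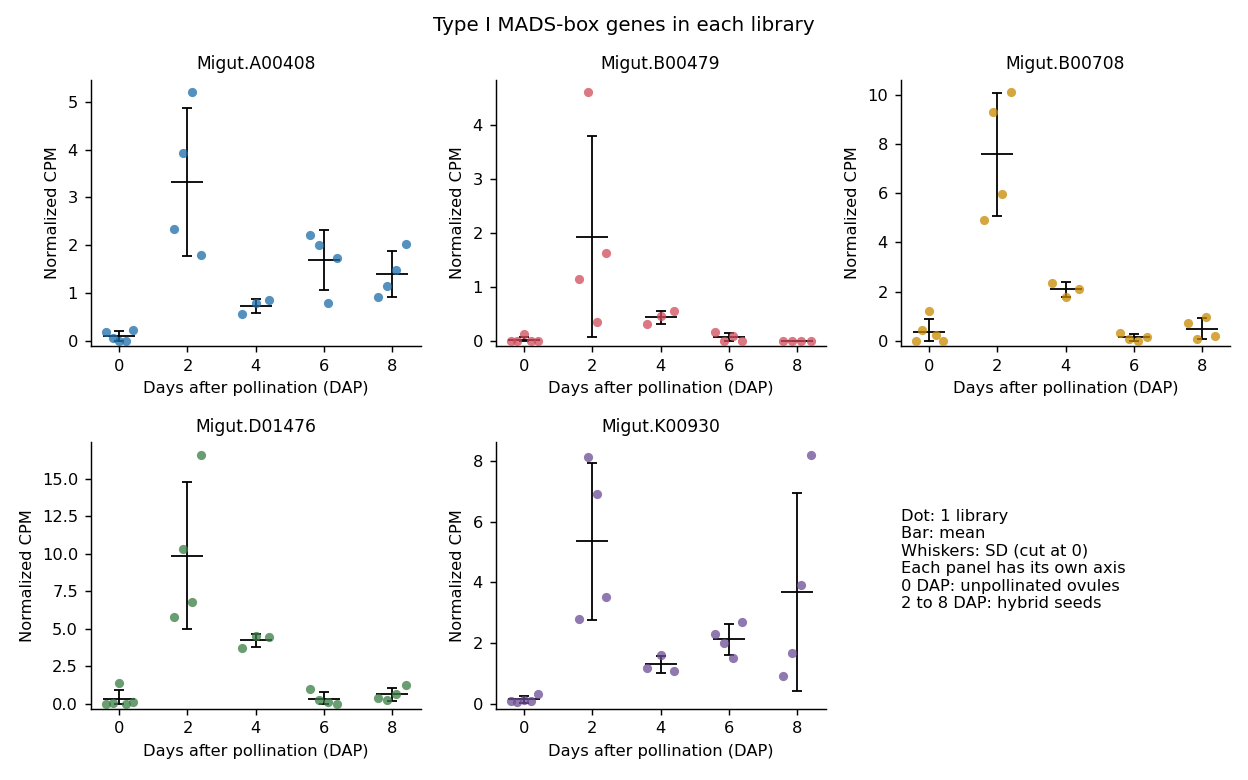
Normalized CPM (vertical axis, its own scale in each panel) of the 5 genes in each of the 20 libraries, by days after pollination; dots are libraries, bars means and whiskers SD cut at 0. At 6 DAP, Migut.B00479, Migut.B00708 and Migut.D01476 lie below 1 normalized CPM in every library, while the 6 DAP means of Migut.A00408 and Migut.K00930 are 1.69 and 2.12.

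The margin by which 2 DAP came first differed among the genes. The 2 DAP mean was 4.39 times the next highest mean for Migut.B00479, 3.62 times for Migut.B00708 and 2.34 times for Migut.D01476, with 4 DAP second in each. For Migut.A00408 it was 1.97 times the 6 DAP mean, and for Migut.K00930 1.45 times the 8 DAP mean, the smallest margin. These margins moved with single libraries. Without 2 DAP replicate 2 that of Migut.B00479 was 2.36, and without 8 DAP replicate 4 that of Migut.K00930 was 2.46. Among older seeds the order was not clear of the spread. For Migut.A00408 the 6 and 8 DAP libraries overlapped, and for Migut.K00930 those of 8 DAP overlapped all other seed ages. Of 20242 genes that passed the filter, 2784 (13.8%) had their highest mean at 2 DAP.

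**Figure D2:**
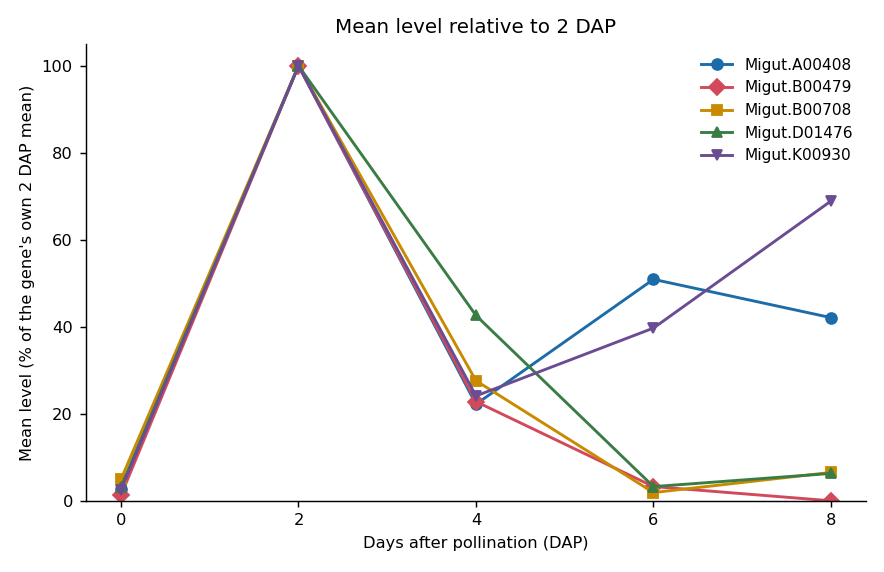
Mean level of each gene as a percentage of its own 2 DAP mean (vertical axis) against days after pollination, 1 line per gene. At 8 DAP Migut.K00930 is at 68.9% and Migut.A00408 at 42.1%, and the other 3 genes are at 6.52% or less.

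How far the genes stood above ovules once 2 DAP is left out was tested with 4 DAP seeds against ovules (edgeR quasi-likelihood test, Benjamini-Hochberg adjustment over 20242 genes, called at 0.01). Migut.K00930, Migut.A00408 and Migut.D01476 rose, which is 3 of 5, where 11.2% of all genes tested rose. The study's joint test over all ages went into the choice of the 5, and Migut.B00479 passed the filter only through 2 DAP. The share of all genes is therefore a scale and not a test of the 5 as a set, here and in the comparisons below. Migut.K00930 had a log2 fold change of 3.28 (SE 0.68, adjusted p = 0.000933), Migut.A00408 one of 3.07 (SE 0.72, adjusted p = 0.00257) and Migut.D01476 one of 3.59 (SE 0.90, adjusted p = 0.00418). Migut.B00708 did not pass, with 2.33 (SE 0.78, adjusted p = 0.0251 in the same test). Migut.B00479 did not pass either, at an edgeR adjusted p of 0.0214. It had 22 counts over the 4 DAP libraries and 2 over the ovule libraries, a ratio of 14.6 whose 95% interval of 3.59 to 128 covers counting error only and not the spread between pools. All 5 genes had every 4 DAP library above every ovule library, as had 19.2% of all genes tested. The median log2 fold change of the 5 was 3.28, against -0.07 over all genes. Both statements include Migut.B00479 as a description, at 6 to 9 counts per library at 4 DAP and at most 2 in ovules. With the maternal plant as a block, 1 of these 3 calls held, that of Migut.D01476 (edgeR adjusted p = 0.00181), while Migut.A00408 had a log2 fold change of 2.60 (adjusted p = 0.0739) and Migut.K00930 one of 3.88 (adjusted p = 0.0252). Ovule replicates 3 to 5 add nothing to 0 DAP in that fit.

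Ovule replicate 3 carried most of the ovule counts of Migut.D01476 and Migut.B00708. It held 23 of the 25 ovule counts of Migut.D01476 (92%) and 20 of the 31 of Migut.B00708 (64.5%). For Migut.A00408 it held 0 of 5, and for Migut.K00930 2 of 8. Without that library Migut.D01476 was 6.44 higher at 4 DAP on the log2 scale (edgeR adjusted p = 4e-05), and Migut.B00708 was 3.38 higher and passed the test (adjusted p = 0.00319). ZHOUPI and FUS3 had no count in ovule replicate 3, though both are also low at 2 DAP (ZHOUPI at 0.259 to 3.47 normalized CPM). Some other genes stood out in that library and others did not. TAR2 (Migut.D01989), an auxin synthesis gene, had 12 counts in it and 0 in the other ovule libraries. Migut.B01455 (AGL80 homologue by the study's tables) had 4 there, 1 in replicate 4 and 0 in the rest. Of the genes most like Migut.B00479, Migut.B00708 and Migut.D01476 (described below), Migut.H01452 had 8 counts in ovule replicate 3. Migut.A00705, Migut.C00870, Migut.D01911, Migut.D02318 and Migut.G00616 had 0 there. The 4 seed and embryo markers summed to 1.34 normalized CPM there, against 1.14 to 3.16 over all 5 ovule libraries and 4.24 to 5.87 at 4 DAP. The ovule genes Migut.B01668 and Migut.N01504 (AGL49 and AGL61 homologues by the study's tables) were at 10.4 and 3.96 in it, within the range of the other ovule libraries. For Migut.N01504 the study's text names AGL60, AGL73 and AGL83. Whether other tissue in that library has a part in these counts was not tested.

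Between 4 and 6 DAP 1 of the 5 genes fell by the test, and 2 others had lower values that did not pass it. Migut.B00708 fell by 3.78 on the log2 scale at 6 DAP (SE 0.95, edgeR adjusted p = 0.00945), 1 of 5 genes where 2.12% of all genes tested fell. Migut.D01476 had -3.66 (SE 0.99), just short of the threshold (adjusted p = 0.016), and passed it with the maternal plant as a block (adjusted p = 0.00438), with DESeq2 and in the fits without ovule replicate 3, ovule replicate 4 or 6 DAP replicate 1. The call of Migut.B00708 is as close to the threshold from the other side. It was lost in 12 of the 20 fits that each left out 1 library, namely each library of 4 and 6 DAP, 2 DAP replicates 2 and 4, and 8 DAP replicates 1, 3 and 4, with adjusted p up to 0.0347, while the log2 fold change stayed between -4.53 and -3.41 over all 20. Migut.B00479 did not pass (edgeR adjusted p = 0.154). Its counts were 3 over the 6 DAP libraries and 22 over those of 4 DAP, and the ratio of 4 DAP to 6 DAP was 7.05, with a 95% interval of 2.12 to 36.8 that again leaves out the spread between pools. In these 3 genes, with Migut.B00479 as a description, every 6 DAP library lay below every 4 DAP library, as in 20.8% of all genes tested. The median log2 fold change of the 5, -2.65 against 0.00 over all genes, was the value of Migut.B00479 itself. It does not describe a fall common to the 5, since Migut.A00408 and Migut.K00930 had positive values. Migut.A00408 had a log2 fold change of 1.19 (SE 0.63, edgeR adjusted p = 0.277) and Migut.K00930 one of 0.72 (SE 0.61, adjusted p = 0.57), and in both the libraries of the ages overlapped.

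From 6 to 8 DAP none of the 5 genes passed the test, where 14.3% of all genes tested did. A count of 0 among 5 is near that share. None had an unadjusted p under 0.05, and DESeq2 called 0 as well. The largest SE was that of Migut.B00479, which had 3 counts at 6 DAP and 0 at 8 DAP and cannot show a change at this depth. Migut.B00708 had a log2 fold change of 1.71 (SE 0.99) and Migut.D01476 one of 0.90 (SE 1.02), both at levels of a few counts. Migut.K00930 had 0.79 (SE 0.55) and Migut.A00408 -0.28 (SE 0.57).

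At 8 DAP, Migut.K00930 and Migut.A00408 were still above ovules. Migut.K00930 had a log2 fold change of 4.79 (SE 0.65, edgeR adjusted p = 5.33e-06) and Migut.A00408 one of 3.99 (SE 0.69, adjusted p = 8.24e-05), so that 2 of 5 genes rose where 18.1% of all genes tested did. Their 8 DAP libraries all lay above all ovule libraries, as in 19.1% of all genes tested. The other 3 genes overlapped with ovules. Migut.B00708 had 0.25 (SE 0.82, edgeR adjusted p = 0.817) and Migut.D01476 0.83 (SE 0.95, adjusted p = 0.488), but without ovule replicate 3 Migut.D01476 was 3.68 higher at 8 DAP and passed (adjusted p = 0.00607). Migut.B00479 was at or under the limit of 3 counts in every library of both ages, and no fold is given.

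**Figure D3:**
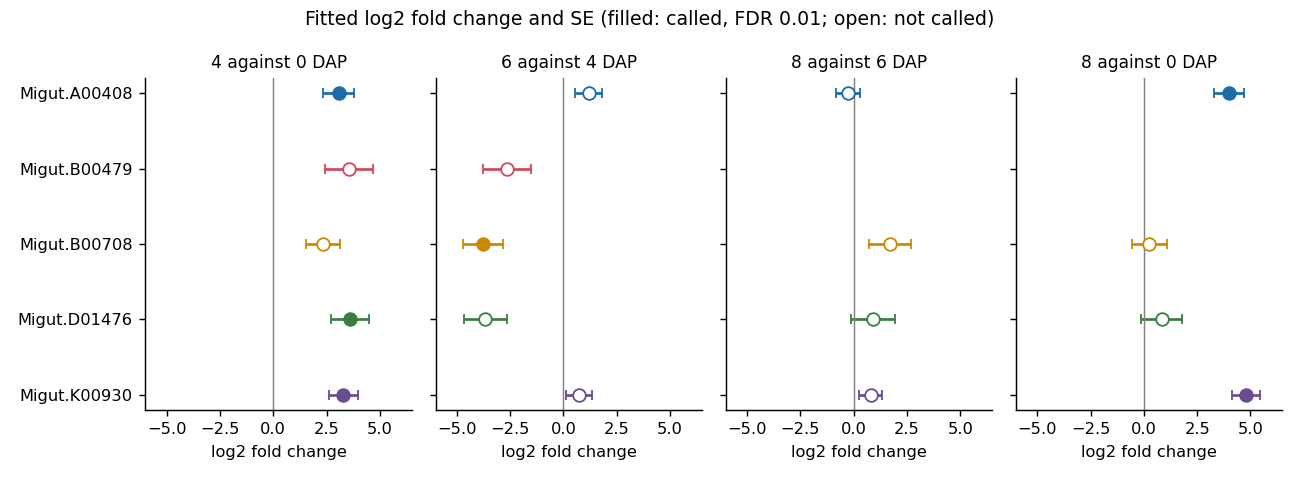
Fitted log2 fold change (horizontal axis) with its SE for the 4 comparisons that leave out 2 DAP; a positive value is higher at the age named first in the panel title. Filled points passed an adjusted p of 0.01 and open points did not, and Migut.B00479 is left out of both panels with 8 DAP, where it had 0 counts. The 8 against 0 DAP panel sets Migut.A00408 (3.99) and Migut.K00930 (4.79) apart from Migut.B00708 (0.25) and Migut.D01476 (0.83).

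How alike the genes were over the 20 libraries was described by the Pearson r of log2(normalized CPM + 0.5). It is given without a test, since libraries of 1 age share that age and the choice of genes fixed part of the pattern. Migut.B00708 and Migut.D01476 had r = 0.944, and each was the gene most like the other among the 20241 other genes tested. Migut.A00408 and Migut.K00930 had r = 0.939 and were likewise each other's closest match. Leaving out any 1 library kept r between 0.929 and 0.957 for Migut.B00708 with Migut.D01476 and between 0.929 and 0.96 for Migut.A00408 with Migut.K00930. The ranks depended on the measure. With Spearman's correlation the values were 0.867 and 0.904, with a pseudocount of 2 CPM 0.961 and 0.907, and with only libraries 1 to 14 they were 0.89 and 0.874. Migut.A00408 and Migut.K00930 stayed each other's closest match except with libraries 1 to 14, where Migut.A00408 ranked 6 for Migut.K00930. For Migut.D01476, Migut.B00708 ranked 7 with Spearman's correlation, 2 with the other pseudocount and 30 with libraries 1 to 14. Migut.B00479 was closer to Migut.B00708 (r = 0.858) and Migut.D01476 (r = 0.844) than to Migut.A00408 (r = 0.483) or Migut.K00930 (r = 0.478). Between the pairs r was 0.478 to 0.554, and with only libraries 1 to 14 it was 0.0899 to 0.276.

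**Figure D4:**
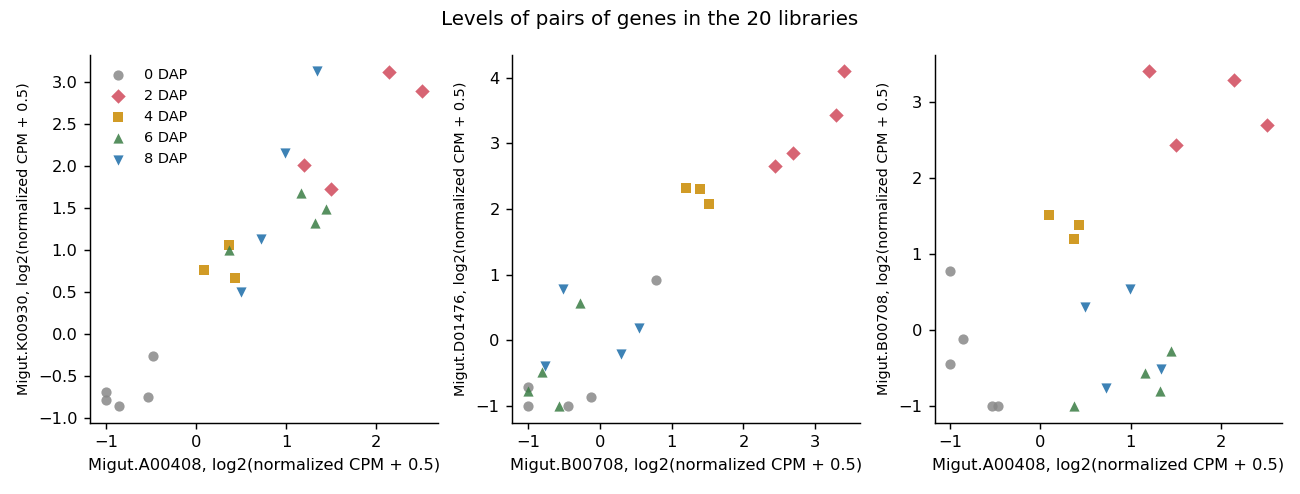
Levels of 2 genes against each other in the 20 libraries, both axes in log2(normalized CPM + 0.5), with color and marker for age. The first panel (Migut.A00408 and Migut.K00930, r = 0.939) and the middle panel (Migut.B00708 and Migut.D01476, r = 0.944) run along a line, while in the last panel (Migut.A00408 and Migut.B00708, r = 0.483) the 6 and 8 DAP libraries leave it.

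The ratio of counts within a pair varied between libraries, and whether it did so beyond counting error was not tested. Migut.D01476 had 1.57, 2.52 and 2.09 counts per count of Migut.B00708 in the 4 DAP libraries, against 1.18, 1.11, 1.13 and 1.64 in those of 2 DAP. The lowest 4 DAP ratio lay just under the highest at 2 DAP. Migut.K00930 had 1, 1.46, 2.64 and 4.05 counts per count of Migut.A00408 in the 8 DAP libraries, against 1.04, 1, 1.89 and 1.55 at 6 DAP. The 8 DAP values rest on 10 to 81 counts of Migut.K00930 and 10 to 20 of Migut.A00408. These ratios depend on gene length and are read only across libraries. The study kept only uniquely mapped reads, so reads that fit closely related copies equally well would be missing from these genes. How alike their sequences are was not examined here. The study's tree of protein sequences places Migut.B00708 and Migut.D01476 as sisters, in a clade that also holds Migut.B00479.

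The other genes most like each member are named by the rule, but which genes these were turned on the measure. Of the 15 matches (the first 3 for each member), 3 were still among the first 3 under Spearman's correlation, 10 with a pseudocount of 2 CPM and 2 with only libraries 1 to 14. With the main measure, Migut.B00708 and Migut.D01476 shared Migut.C00870 (r = 0.925 and r = 0.937), a homologue of an SGNH-type esterase by the study's tables, with means of 0.0411, 7.69, 2.92, 0.041 and 0 normalized CPM from 0 to 8 DAP. Migut.H01452 came next for Migut.B00708 (r = 0.918) and Migut.D02318, a homologue of the lignin pathway enzyme HCT, for Migut.D01476 (r = 0.936). For Migut.B00479 they were Migut.D01911 (r = 0.939), Migut.A00705 (r = 0.935) and Migut.G00616 (r = 0.92). For Migut.A00408 they were Migut.M00973 (r = 0.884) and Migut.A00970 (r = 0.881), with 8 DAP means of 36.3 and 2.43 normalized CPM. For Migut.K00930 they were Migut.N02647 (r = 0.899) and Migut.C00009 (r = 0.883), with 8 DAP means of 13.5 and 60.4.

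Other MADS-box genes that the study names by identifier served as a comparison, 15 in all, of which 12 passed the filter. Of the 15, 4 had their highest mean in ovules, 3 at 2 DAP, 5 at 6 DAP and 3 at 8 DAP. Migut.B00482, among those highest in ovules, did not pass the filter and had 7 counts there. Some maxima were near ties with the next highest mean. The ratio was 1.03 for Migut.N01481 (8 over 0 DAP), 1.04 for Migut.H01211 (8 over 6 DAP) and 1.1 for Migut.C01325 (6 over 8 DAP). Over all genes tested the shares from 0 to 8 DAP were 29.4%, 13.8%, 16.2%, 17.7% and 23%. These shares cover only genes that passed the filter. Among the 3 with their highest mean at 2 DAP, Migut.A00406 (0.743 ± 0.589 normalized CPM at 2 DAP) and Migut.B00481 (0.452 ± 0.336) did not pass the filter. The study's tables pair Migut.B01455 with the central cell gene AGL80, while its text names AGL34 and AGL90. This gene did pass, with means of 29.5 ± 19.8, 17.9 ± 3.38, 19.7 ± 10.3 and 0.0886 ± 0.177 from 2 to 8 DAP (SD). It thus meets the same rule on the mean, with a 2 DAP mean 1.5 times the next highest, but is not among the 5. Migut.B00480, which the study's tables also pair with AGL62, was highest in ovules at 5.49 ± 2.48 (SD) and had no count at 8 DAP.

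Many of these genes are named by the study for their change in these same libraries, so the shares of all genes are given only as a scale. Of the 12 other MADS-box genes tested, 6 rose and 2 fell at 4 DAP against ovules (11.2% of all genes tested rose and 9.99% fell). At 6 DAP against 4 DAP 5 rose and 0 fell (5.22% of all genes rose). At 8 DAP against 6 DAP 0 rose and 4 fell (6.77% fell), and at 8 DAP against ovules 5 rose and 3 fell (18.1% of all genes rose and 16.7% fell). Those called in the most comparisons were highest at 6 or 8 DAP. Migut.I00404 (AGL29 homologue) was at 0.0105, 0.59, 0.925, 15.2 and 18.3 normalized CPM from 0 to 8 DAP, and Migut.H01211 (AGL104 homologue) at 0, 1.3, 0.855, 9.56 and 9.9. Migut.L00101 (AGL104 homologue) was at 9.82 ± 2.98 at 6 DAP and had no count at 8 DAP. Migut.B01089 (AGL45 homologue) was at 12.3 ± 3.1 at 6 DAP and 0.401 ± 0.632 at 8 DAP (SD).

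**Figure D5:**
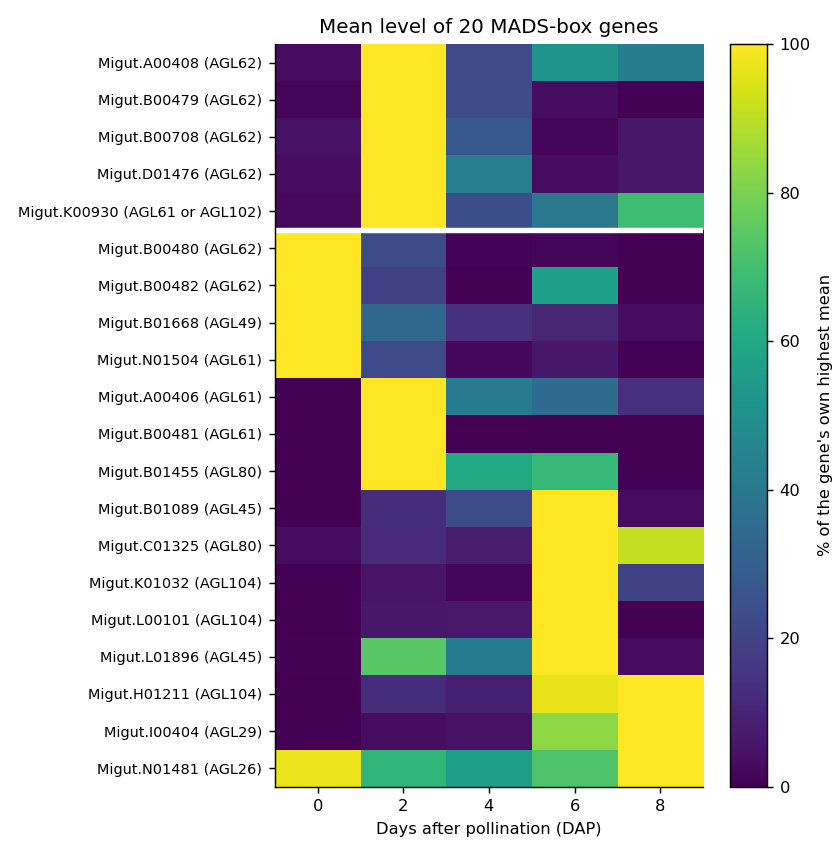
Mean level of the 5 genes (above the white line) and of 15 other MADS-box genes the study names (below it), by days after pollination. Each level is a percentage of the gene's own highest mean, and the 15 are ordered by age of the highest mean. Homologues are those in the study's tables, and for Migut.K00930 also its text. The text names other homologues for Migut.B01455 and Migut.N01504. Of the other 15, 3 share the 2 DAP maximum, and 8 have their maximum at 6 or 8 DAP. Among those 3 only Migut.B01455 passed the filter on low counts, and some of the later maxima are near ties.

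Of 7 regulators of Polycomb repression, endosperm and auxin that the study names, none had its highest mean at 2 DAP (13.8% of all genes did, so a count of 0 among 7 is near that share), 1 had it in ovules, 1 at 6 DAP and 5 at 8 DAP. At 4 DAP against ovules 1 rose and 1 fell (11.2% and 9.99% of all genes). FIE (Migut.M01812), a subunit of the Polycomb complex that restrains seed development before fertilization in Arabidopsis thaliana, was the one that fell, by 1.34 on the log2 scale (SE 0.23, edgeR adjusted p = 0.000122). Its means were 83, 62.2, 32.7, 32.5 and 27.2 normalized CPM from 0 to 8 DAP. At 6 DAP against 4 DAP 2 rose and 0 fell (5.22% and 2.12% of all genes). ZHOUPI was one of them, with means of 0, 1.44, 0.913, 9.07 and 11.6 from 0 to 8 DAP, so it rose over the interval in which Migut.B00708 fell. At 8 DAP against 6 DAP 2 rose, the auxin synthesis genes YUC4 (Migut.A00287, mean 90.9 at 8 DAP and 1.69 at 6 DAP) and TAR2 (Migut.D01989, 62.2 and 1.73), and 0 fell (7.52% of all genes rose). At 8 DAP against ovules 5 rose and 1 fell (18.1% and 16.7% of all genes). The study names YUC4 and TAR2 as exclusive to heart-stage seeds from these same libraries, so their rise was known beforehand. For this list too the shares of all genes are only a scale.

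The study's sample names number the libraries 1 to 20, and the last of them, 15 to 20, comprise replicates 3 to 5 of ovules and replicates 2 to 4 of 2 DAP seeds. Whether these were prepared or sequenced apart from numbers 1 to 14 is not stated. Among the first 14 only replicate 1 is of 2 DAP. It was the lowest of the 4 after TMM scaling for Migut.B00708, Migut.D01476 and Migut.K00930, but on unscaled CPM it was at 6.54, 7.71 and 3.72 for these genes and the lowest for none of them. Within libraries 1 to 14 Migut.K00930 was highest at 8 DAP, with a mean 1.32 times the next highest, and the other 4 genes were still highest at 2 DAP. In these libraries the difference of Migut.A00408 at 4 DAP against ovules, of which 2 libraries remained, was 2.66 on the log2 scale and missed the threshold (edgeR adjusted p = 0.0168). The comparisons of 6 DAP with 4 DAP and of 8 DAP with 6 DAP set libraries from these 14 against each other.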

How the data were processed

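RNA of 20 pools of ovules or seeds was sequenced as strand-specific paired-end libraries. Per the study's methods, the authors trimmed reads (Trimmomatic), mapped them with STAR against a pseudo-reference for each parent, retained proper pairs with a unique position, and counted these per gene with featureCounts and the Phytozome v2.0 models (versions of the tools are not given in the sources used here). The deposited values are raw counts per gene, without normalization. Total counts were 7588155 to 16529554 per library, which puts 3 counts at 0.155 to 0.332 normalized CPM.

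Groups are the ages in the deposited labels. The deposited record and the paper describe the pools differently, so p-values measure the spread between these pools, which may share plants. No pair of replicates agreed within sampling noise. Counts were tested with edgeR 4.0.16 (limma 3.58.1, R 4.3.3): TMM scaling, genes above 1 CPM in at least 3 libraries (20242 of 28140), 1 coefficient per age over all 20 libraries, robust quasi-likelihood F tests (two-sided) and Benjamini-Hochberg adjustment, called at 0.01. The test was tried on simulated data, where in some contrasts it missed a sizeable part of the large changes it was given, with few false calls, and the mark set for this check was lowered after its first outcome. A gene that did not pass may therefore still differ. Contrasts with 2 DAP were not tested, because that age chose the genes. The design assumed independence from the rule for the other ages, although the study's joint test over all ages also went into the choice. Counting intervals are exact 95% intervals for a ratio of Poisson counts. Other tools were Python 3.11.15, pandas 2.3.3, scipy 1.17.1 and matplotlib 3.10.9.

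The 5 genes and both lists were chosen with earlier results of these data known. Besides the 5 genes, the rule names at most 4 genes of each list, those called in the most comparisons with ties by adjusted p, and for each of the 5 the 3 tested genes with the highest Pearson r; FUS3, ABI3, L1L, ZHOUPI and the ovule genes are the marker list. Migut.A00406, Migut.B00480, Migut.B00481, Migut.B00482, Migut.B01455, Migut.C01325 and Migut.N01481 were singled out after their values were seen. Alternatives were RLE scaling, no filter, a likelihood ratio test, DESeq2 1.42.0, other thresholds and samples, blocks, a covariate for libraries 15 to 20, and leaving out each library.

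Plants were taken from the study's list of libraries. Over 28 pairs of libraries from 1 plant at different ages the residuals correlated with a median of 0.0107, against -0.0104 between plants. A block for the plant was an alternative fit. No gene positions or sequences are given, since no genome was used here.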

Additional observations from a re-analysis of the deposited data

Results flagged for a closer look

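Within ages of 4 or 5 libraries, 19 sets of levels were checked for a library that stood apart by Dixon's test, which chance alone flags in about 1 of 20 sets. Ovule replicate 3 stood apart from the other ovule libraries for Migut.D01476 (1.4 normalized CPM, 23 counts) and for Migut.B00479 (0.122, 2 counts). With 0 in the other 4 any count stands apart by construction, and 2 counts are under the limit of 3. Ovule replicate 5 stood apart for Migut.K00930 at 0.332 normalized CPM, which is 3 counts.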

How the results depend on the processing

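No fitted fold change that passed the test in any setting changed its direction. Of the 5 genes, 3 passed at 4 DAP against ovules, while 1 did with only the 2 ages compared. All 5 did with the likelihood ratio test or at a threshold of 0.05. That count includes Migut.B00479, whose value is a description only, since it entered the tests through 2 DAP. At 6 DAP against 4 DAP 1 passed, and 2 did with the likelihood ratio test, only the 2 ages, a covariate for libraries 15 to 20, only libraries 1 to 14, DESeq2 or a threshold of 0.05. Leaving out 1 library at a time gave 1 to 4, 0 to 2, 0 to 0 and 2 to 3 genes at 4 against 0, 6 against 4, 8 against 6 and 8 against 0 DAP. Without 4 DAP replicate 3 Migut.A00408 missed the threshold at 4 DAP against ovules (edgeR adjusted p = 0.0116), and without any 1 of the 4 DAP libraries Migut.D01476 did (0.0106 to 0.0136). The causes were not tested, apart from the fewer samples in some fits.

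Replicates share label numbers across ages, and the study's list ties some libraries to a plant. The label numbers did not pair the samples (median residual correlation -0.0274, over 0.1 in 6 of 36 pairs), and as a block they left 2 genes called at 4 DAP against ovules and 0 at 6 DAP against 4 DAP. With the maternal plant as a block 1 and 2 genes were called. Neither block changed a call among the 5 at 8 DAP against 6 DAP or against ovules.

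The 15 correlations of each gene with its closest genes moved beyond the range of leaving out 1 library in 15 cases with Spearman's correlation, 13 with a pseudocount of 2 CPM and 12 with libraries 1 to 14.

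Over all genes tested, 4280, 1487, 2892 and 7042 were called at 4 against 0, 6 against 4, 8 against 6 and 8 against 0 DAP. At 4 against 0 DAP the count became 2577 with only the 2 ages, 2157 with the plant block and 6832 at a threshold of 0.05, and 2695 to 4784 leaving out 1 library. At 6 against 4 DAP it became 2294 with the likelihood ratio test, 4692 with only the 2 ages, 3160 with libraries 1 to 14, 2264 with DESeq2 and 2697 at 0.05, and 717 to 1763 leaving out 1 library. At 8 against 6 DAP it became 7478 with only the 2 ages, 5445 with that covariate, 7487 with libraries 1 to 14, 4414 with DESeq2 and 6013 at 0.05, and 1768 to 3843 leaving out 1 library. At 8 against 0 DAP it was 5893 to 7608 leaving out 1 library. At these depths a gene with under about 3 counts per library at both ages compared, as Migut.B00479 had at 6 and 8 DAP, cannot show a change.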
